A study of Mus musculus with 6 samples.

Results

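The genes described here encode amino acid and peptide transporters, in dendritic cell cultures that were grown from mouse bone marrow and treated with midkine. A gene was included when its symbol placed it in 1 of 8 carrier families, Slc1, Slc3, Slc6, Slc7, Slc15, Slc36, Slc38 or Slc43, whatever its values. The rule found 35 genes among the 14912 gene symbols of the table. All 6 samples came from wild-type C57BL/6J bone marrow kept with FLT3 ligand (FLT3LG, 50 ng/ml), which makes marrow progenitors become dendritic cells and which was renewed on day 7. For the final 2 days recombinant human midkine (10 ng/ml), a heparin-binding growth factor, was present in 3 of the samples and absent from the 3 controls. Both groups were kept in RPMI medium with Glutamax, a stable source of glutamine, and with serum, added non-essential amino acids, pyruvate and β-mercaptoethanol, which eases cystine uptake by cells. The labels name no sort, so several dendritic cell types and other marrow cells can be present, and RNA was taken in bulk and read from its 3' ends. The question is what midkine does to gene expression in such cultures. Whether the replicates of a group came from separate mice or wells is not stated in the labels, and the p-values therefore reflect only the spread among these libraries, which may be technical.

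Amino acids cross membranes through carriers of several families that differ in their substrates and in what drives them. The heavy chain CD98, encoded by Slc3a2, carries Slc7 light chains such as LAT1 and xCT to the cell surface, where they exchange one amino acid for another. Slc1, Slc6 and Slc38 carriers mostly use the sodium gradient, and Slc15 and some Slc36 carriers use protons. Several of these proteins sit in lysosomes and not at the cell surface. Cells that lack amino acids translate more of the transcription factor ATF4, whose known targets include genes of amino acid synthesis and some of these carriers. In dendritic cells, amino acid uptake feeds growth signalling by the kinase complex mTORC1, and endolysosomal peptide carriers of the Slc15 family take part in sensing bacterial peptides and nucleic acids.

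Reads counted for the 14912 gene symbols came to 5089338 to 5532055 per control library and 5685055 to 6453768 per midkine library. Transporter genes took 6654 to 7276 reads of a control library and 7244 to 9293 of a midkine library, between 0.127% and 0.144% of these counted reads. Marker genes of several cell types differed between the groups, where 20.9% of all tested genes were higher and 21.8% lower with midkine. Of 9 measured plasmacytoid dendritic cell markers 8 were lower with midkine, and their summed level was 6575 to 6816 normalised read counts in control and 2044 to 2160.0 in midkine libraries. Of 8 type 1 conventional dendritic cell markers 7 were lower and 1 higher (23009 to 27111 against 12460 to 14189 summed). Of 7 type 2 markers 5 were higher and 0 lower (2873 to 3134 against 3758 to 4378 summed), though 1 of the 5, Clec4a4, reached the minimum for a test only through the midkine libraries. Of 8 stromal markers 7 were higher and 1 lower (13878 to 17182 against 36240 to 39171 summed). Of 8 neutrophil markers only 3 reached the minimum for a test, with 2 lower (S100a8 and S100a9) and 0 higher. Mpo was not called and reached the minimum only through the control libraries. The 8 summed to 474 to 591 in control and 35.7 to 63.1 in midkine libraries. Of this sum S100a8 and S100a9 had means of 292 and 215 in control and 18.9 and 13.6 in midkine libraries, so it largely reflects these 2 genes. Of 11 macrophage and monocyte markers 3 (27.3%) were higher and 4 (36.4%) lower, and of 4 tested B lineage markers 0 and 2. In each of these lists 1 lower gene (Ly6c2 and Vpreb1) reached the minimum only through the control libraries. Of 2 tested erythroid and megakaryocyte markers Pf4 was lower and Itga2b higher, and Itga2b reached the minimum only through the midkine libraries. None of the listed mast cell, T cell or NK cell markers reached the minimum for a test. Itgax, which encodes the dendritic cell marker CD11c, was at 420.3, 387 and 443 normalised read counts in control and 691, 778 and 762 in midkine libraries. Mitochondrial ribosomal RNA took 9.63% of the counted reads on average in control and 19.8% in midkine libraries. In bulk RNA, a change in the number of cells of a type cannot be told apart from a change in the RNA each cell holds, and the part of the marker and ribosomal RNA differences in the results on transporters was not tested.

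Of the 35 transporter genes, 27 reached a mean of at least 10 normalised read counts and entered the test, limma on log2(value + 1) fitted over 11844 genes with Benjamini-Hochberg adjustment at 0.05. Of the 27, 16 (59.3%) were higher with midkine, where 20.9% of all tested genes were higher. Slc6a9, among these 16, reached the minimum only through the midkine libraries. A further 4 (14.8%) were lower, where 21.8% of all tested genes were lower. Together 20 (74.1%) were called and 7 were not, where 42.7% of all tested genes were called. edgeR on recovered reads also called 20 of the 27, and 43.5% of all tested genes. In 21 of the 27 (77.8%) the 3 libraries of one group lay entirely beyond those of the other, as in 51.3% of all tested genes. The median log2 fold change over the 27 was 0.48, against -0.01 over all tested genes. The 8 other transporter genes had too few reads to test, so these counts cover the transporters that these cultures expressed at a measurable level.

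**Figure D1:**
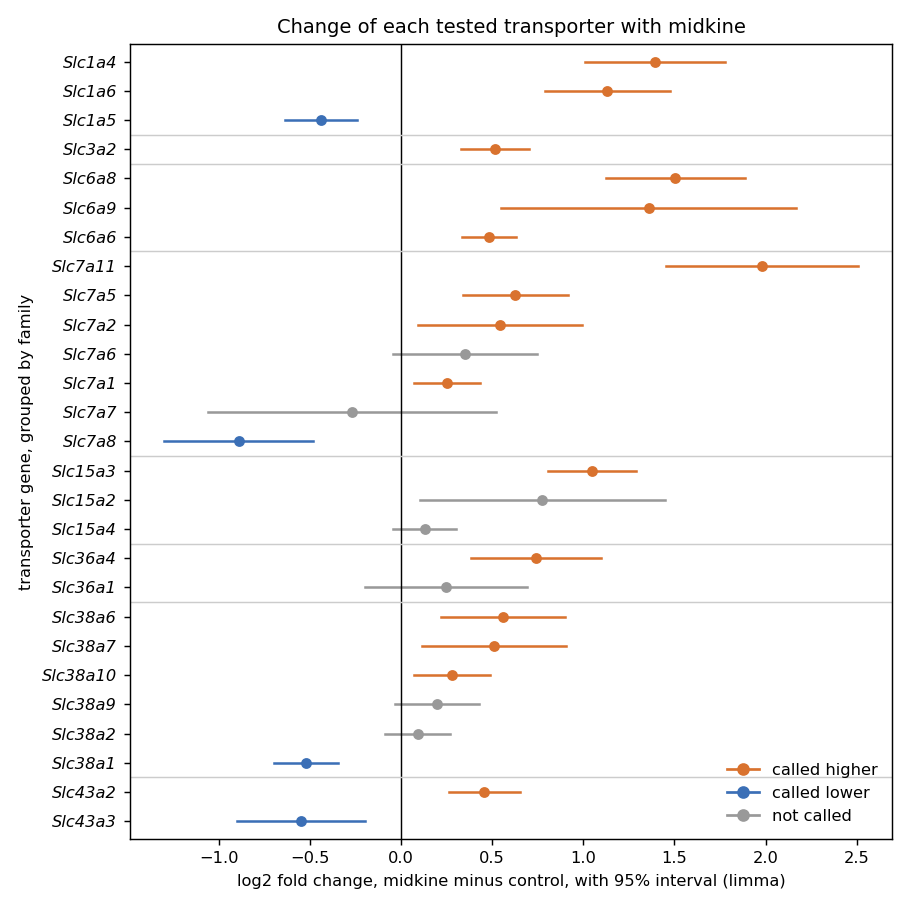
Log2 fold change of midkine over control, on the log2(value + 1) scale, for the 27 tested transporter genes grouped by family; points are limma estimates and bars their 95% confidence intervals, coloured by call. The estimates run from -0.89 for Slc7a8 to 1.98 for Slc7a11, and the 3 tested Slc6 genes all lie above 0. Of these 3, Slc6a9 reached the minimum for a test only through the midkine libraries.

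The number of transporters called higher depended on how libraries were scaled, and the number called lower did not under the scalings tried. With the deposited size factors and with TMM factors, 16 were higher and 4 lower. Quantile normalization gave 14 and 4, and scaling to total reads without 3 ribosomal RNA rows gave 12 and 4. Scaling to total reads gave 10 higher (37.0%) and 4 lower (14.8%), where 10.8% of all tested genes were higher and 40.7% lower. That scaling moved the median of all genes by -0.25 on the log2 scale, to -0.26. The transporter median relative to it was 0.49 with either scaling. A factor per library shifts all genes by nearly the same amount, so this relative value could hardly differ and is no check on the calls. The transporters that kept their call under each alternative in which they were tested, among them other scalings, other tests and leaving out each library, were 9 higher (Slc7a11, Slc6a8, Slc1a4, Slc1a6, Slc15a3, Slc36a4, Slc7a5, Slc3a2 and Slc6a6) and 3 lower (Slc7a8, Slc38a1 and Slc1a5). For Slc7a11, which was under the minimum mean of 50, these were 17 alternatives, and for the others 18.

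**Figure D2:**
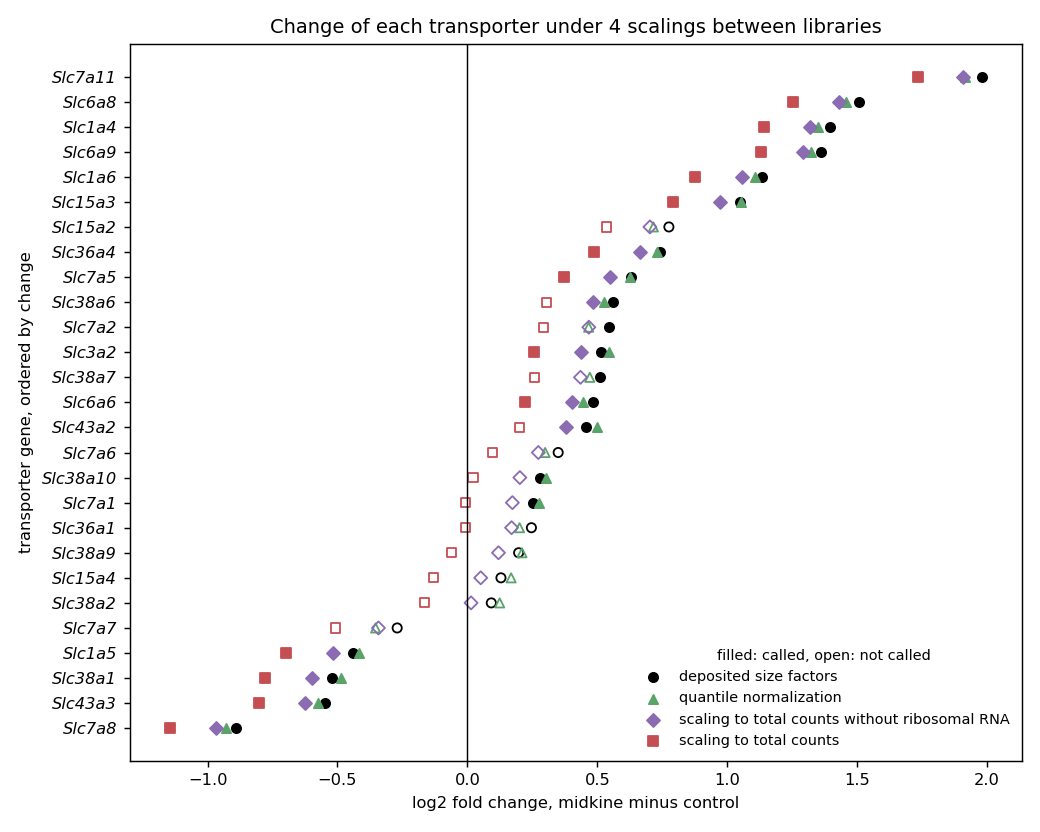
Log2 fold change of midkine over control (horizontal axis) for the 27 tested transporter genes, ordered by change, with the deposited size factors and 3 other scalings of the libraries; filled symbols passed the test and open symbols did not. Scaling to total reads shifts the genes to the left, with 10 called higher and 4 lower in place of 16 and 4, and Slc7a1 is the one called transporter whose sign changes.

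Among the tested transporters the largest rise was that of the cystine importer. Slc7a11 encodes xCT, which exchanges extracellular cystine for glutamate and so supplies cysteine for glutathione. It lies on chromosome 3 at 49892526 to 50443614 on the minus strand (GRCm38). Slc7a11 was at 17.0, 11.2 and 10.4 normalised read counts in the 3 control libraries and at 50.7, 60.5 and 47.4 in the 3 midkine libraries. Every midkine library was well above every control library, and the means were 12.9 ± 3.60 and 52.9 ± 6.80 (SD, n = 3 each). The log2 fold change was 1.98 (SE 0.26, limma adjusted p = 6.5e-07), a 3.94-fold rise.

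Its heavy chain rose too. Slc3a2, the CD98 subunit that xCT and the LAT light chains need, was at 560.1, 463 and 533 normalised read counts in control and 677, 782 and 762 in midkine libraries. The groups did not overlap, and the log2 fold change was 0.51 (SE 0.091, limma adjusted p = 5.4e-05). Slc7a5 encodes LAT1, the carrier of leucine and other large neutral amino acids. It was at 97.3, 123 and 139 normalised read counts in control and 169, 217 and 168 in midkine libraries, with no overlap (log2 fold change 0.63, SE 0.14, limma adjusted p = 7.2e-04). The other LAT light chain went the opposite way: Slc7a8, which encodes LAT2, was at 89.7, 89.6 and 64.6 in control and 31.6, 47.7 and 52.5 normalised read counts in midkine libraries. All 3 midkine libraries were below the lowest control library, and the fold change was -0.89 on the log2 scale (SE 0.20, limma adjusted p = 7.3e-04), which is 1.85-fold lower.

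The y+LAT light chains, which export cationic amino acids in exchange for neutral ones, did not pass the test. Slc7a6 had a log2 fold change of 0.35 (95% interval -0.045 to 0.74, limma adjusted p = 0.148), although its groups did not overlap. Slc7a7 had -0.27 (-1.06 to 0.52, limma adjusted p = 0.605). Oxa1l, which shares exonic bases with Slc7a7 on the other strand, was higher (0.52). The strand setting of the counting is not given in the sources used here, so reads of such pairs may not be separated. Among the light chains that pair with CD98, then, xCT and LAT1 transcripts were higher, LAT2 was lower, and the y+LAT intervals include both no change and changes of the size seen for Slc3a2.

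**Figure D3:**
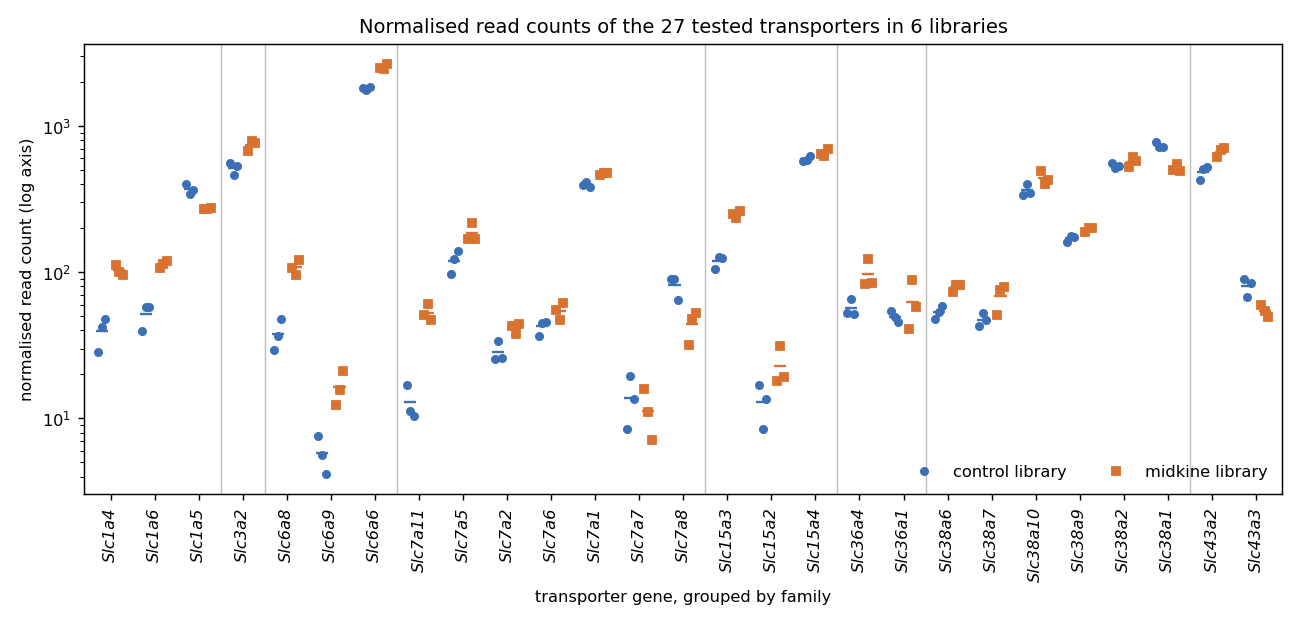
Normalised read counts on a log axis in each of the 3 control (circles) and 3 midkine libraries (squares) for the 27 tested transporter genes, grouped by family, with group means as short lines. In Slc7a11 the midkine libraries sit at 47.4 to 60.5 and the control libraries at 10.4 to 17.0; in Slc7a8 the order of the groups is the opposite.

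Carriers of small neutral and acidic amino acids in the Slc1 family were divided, with 2 higher and 1 lower. Slc1a4 encodes ASCT1, an exchanger of alanine, serine and cysteine, on chromosome 11 at 20302180 to 20332713 on the minus strand. It was at 28.3, 42.0 and 47.9 normalised read counts in control and 113, 101 and 95.8 in midkine libraries. The groups were far apart, with a log2 fold change of 1.39 (SE 0.19, limma adjusted p = 1.1e-06), a 2.63-fold rise. Slc1a6, a glutamate carrier best known from cerebellar Purkinje cells, was at 39.7, 57.8 and 57.3 in control and 106, 114 and 119 normalised read counts in midkine libraries. Again no midkine library came near the control libraries, and the log2 fold change was 1.13 (SE 0.17, limma adjusted p = 4.7e-06). Slc1a5, which encodes ASCT2, a main route of glutamine entry, was at 401, 344 and 364 in control and 272, 271 and 272 normalised read counts in midkine libraries. It was lower in each midkine library than in any control library (-0.44 on the log2 scale, SE 0.10, limma adjusted p = 6.3e-04). Slc1a3, a glutamate carrier of glial cells, had 6 reads in control and 6 in midkine libraries in all and was not tested.

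ATF4 binds with a C/EBP partner at a composite element whose core letters are TGATGNAA, so the promoters of the transporters were searched for these letters on both strands. RefSeq start sites (GRCm38.p6) were found for 24 of the 35 genes (68.6%), with 250 bases before and 50 after each start. These genes have 35 promoter entries, since some have several start sites. The letters were in 4 of the 35 entries (11.4%), which belong to Slc7a11, Slc1a4 and Slc7a7, and in 3.97% of the 32851 mouse promoters of that length. Of the 12 called transporters with an entry 2 held them, Slc7a11 and Slc1a4, and only the promoters of called genes with these letters are shown. Slc7a7, whose log2 fold change of -0.27 was not called, holds these letters in 2 overlapping promoter entries. These entries share a match at the same genomic site, so the share of 11.4% counts that site in both. The promoters of Slc7a11 and Slc1a4 are printed 5' to 3' on the gene's strand, with the matching letters in capitals, as TGATGCAA or, on the opposite strand, TTGCATCA.
Slc7a11, chr3:50443564-50443863, minus strand: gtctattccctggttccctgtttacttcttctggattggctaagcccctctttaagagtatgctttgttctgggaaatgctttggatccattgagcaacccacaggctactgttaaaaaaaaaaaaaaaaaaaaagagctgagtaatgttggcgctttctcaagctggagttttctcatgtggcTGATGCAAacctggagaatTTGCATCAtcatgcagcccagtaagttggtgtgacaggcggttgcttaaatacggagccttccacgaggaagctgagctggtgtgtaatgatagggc
Slc1a4, chr11:20332664-20332963, minus strand: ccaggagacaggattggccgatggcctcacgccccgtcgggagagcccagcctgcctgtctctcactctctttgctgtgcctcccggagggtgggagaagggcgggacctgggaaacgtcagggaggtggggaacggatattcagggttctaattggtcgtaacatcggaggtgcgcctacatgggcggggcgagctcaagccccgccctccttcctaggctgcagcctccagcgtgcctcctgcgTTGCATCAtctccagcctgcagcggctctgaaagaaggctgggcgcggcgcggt

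The Slc7a11 promoter held 2 such matches, which begin 66 and 47 bases before the start site on opposite strands. The Slc1a4 promoter held 1, which begins 4 bases before the start and runs across it. The letters TGANNNNGC, found in antioxidant response elements, were common: they were in 41.3% of all promoters of that length and in 22 of the 35 entries of transporters (62.9%). By gene, 17 of the 24 transporters with an entry held them, but only 7 of the 12 called ones, so they did not mark the called genes. Slc7a11 held 3 TGANNNNGC matches, of which 1 overlaps a TGATGNAA match, and Slc1a4 held 1 with no overlap. These are matches of letters, and no binding was measured.

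All 3 tested Slc6 carriers, which use sodium and chloride gradients, were higher. Slc6a8, the creatine transporter, was at 29.3, 36.4 and 47.9 normalised read counts in control and 106, 96.2 and 121 in midkine libraries. The lowest midkine library was above the highest control library by a wide margin, and the log2 fold change was 1.51 (SE 0.18, limma adjusted p = 2.9e-07), a 2.84-fold rise. Slc6a6 carries taurine, and its level was 1809 ± 38.9 in control and 2527 ± 89.3 normalised read counts with midkine (SD, n = 3), a log2 fold change of 0.48 (SE 0.073, limma adjusted p = 6.5e-06). Slc6a9, the glycine transporter GLYT1, was low: 7.56, 5.60 and 4.17 normalised read counts in control and 12.4, 15.6 and 21.2 in midkine libraries. It entered the test only through the midkine libraries, so its call (log2 fold change 1.36, SE 0.39, limma adjusted p = 0.00698) is not independent of the minimum. Without midkine replicate 3 it was no longer called (1.17, adjusted p = 0.0598). Its exons also overlap B4galt2 on the other strand, which was higher (0.93). Slc6a13, a GABA and taurine carrier, and Slc6a4, the serotonin transporter, had 15 and 3 reads in the control libraries together and 10 and 6 in the midkine libraries, and were not tested.

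The cationic amino acid transporters of the Slc7 family bring arginine and lysine into the cell without a heavy chain. Slc7a1 was at 395 ± 14.2 in control and 470.4 ± 5.34 normalised read counts with midkine (SD, n = 3). Its log2 fold change of 0.25 (SE 0.088, limma adjusted p = 0.0231) became -0.0071 with scaling to total reads, and the call was lost without control replicate 3 (adjusted p = 0.0910) or midkine replicate 3 (0.0694). Slc7a2 was at 25.5, 33.6 and 26.1 in control and 42.8, 37.6 and 44.4 normalised read counts in midkine libraries, with a log2 fold change of 0.54 (SE 0.22, limma adjusted p = 0.0474). The call of Slc7a2 was lost in 5 of the 6 fits that left out a library, with adjusted p from 0.0557 to 0.134 in those 5 and values from 0.47 to 0.61. It was also lost with a replicate block (0.0567), with edgeR (0.05005), with DESeq2 (0.142), with no minimum (0.0638) and with 3 of the other scalings. Slc7a3, another arginine carrier, had 9 reads in control and 13 in midkine libraries and was not tested.

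Sodium-coupled neutral amino acid transporters of the Slc38 family were divided. Slc38a1, a system A carrier of glutamine and alanine, was at 769.8, 715 and 721 in control and 496, 552 and 489 normalised read counts in midkine libraries. The groups did not overlap, and it was lower with midkine (-0.52 on the log2 scale, SE 0.085, limma adjusted p = 1.9e-05). Its relative Slc38a2, which cells raise when amino acids run short, had a log2 fold change of 0.092 (95% interval -0.087 to 0.27, limma adjusted p = 0.42). With Slc1a5 above, 2 surface routes for glutamine were therefore lower at the transcript level, and each stayed lower and called under all 18 alternatives.

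The 3 Slc38 genes called higher lost that call under at least 1 scaling. Slc38a6, a less studied member, was at 48.2, 53.2 and 58.4 in control and 73.2, 81.6 and 81.7 normalised read counts in midkine libraries (log2 fold change 0.56, SE 0.16, limma adjusted p = 0.00776), and was not called with scaling to total reads (0.31, 0.143). Slc38a7, which exports glutamine from lysosomes, was at 42.5, 52.2 and 46.9 normalised read counts in control and 50.7, 76.1 and 79.7 in midkine libraries, and these groups overlap (log2 fold change 0.51, SE 0.19, limma adjusted p = 0.0334). Slc38a10 also overlapped between groups (log2 fold change 0.28, SE 0.10, limma adjusted p = 0.0271). Each of these last 2 calls was lost in 4 of the 6 fits without a library: those of Slc38a7 without control replicate 1 (adjusted p = 0.0975), control replicate 3 (0.0674), midkine replicate 2 (0.125) or midkine replicate 3 (0.166), and those of Slc38a10 without control replicate 1 (0.0918), control replicate 3 (0.0939), midkine replicate 1 (0.157) or midkine replicate 3 (0.0560). Slc38a9, the lysosomal arginine sensor that signals to mTORC1, was at 170.0 ± 9.20 in control and 195 ± 6.79 normalised read counts with midkine (SD, n = 3), without overlap and without a call (log2 fold change 0.20, 95% interval -0.032 to 0.43, limma adjusted p = 0.159). With scaling to total reads 0 Slc38 genes were higher and 1 was lower, and the median of the 6 was -0.02 in place of 0.24.

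Slc36 carriers, some of them proton-coupled, move neutral amino acids, in part out of lysosomes. Slc36a4, a high-affinity carrier of proline and tryptophan, was at 52.9, 65.3 and 52.1 normalised read counts in control and 83.4, 123 and 83.7 in midkine libraries. Midkine replicate 2 was the highest, and all 3 midkine libraries were above the control libraries (log2 fold change 0.74, SE 0.17, limma adjusted p = 0.00122). Slc36a1, the lysosomal carrier PAT1, was not called, with 0.25 (95% interval -0.20 to 0.69, limma adjusted p = 0.381), and turned to -0.04 without midkine replicate 2 and to -0.0071 with scaling to total reads. Slc36a2 had 3 reads in control and 17 in midkine libraries, too few to test.

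The tested members of the Slc43 family moved in opposite directions. Slc43a2, which encodes LAT4, a facilitative carrier of large neutral amino acids, was at 487 ± 54.1 in control and 667 ± 51.1 normalised read counts with midkine (SD, n = 3; log2 fold change 0.46, SE 0.094, limma adjusted p = 3.2e-04), and was not called with scaling to total reads (0.20, 0.111). Slc43a3, whose protein carries purine nucleobases and not amino acids, was at 89.7, 67.2 and 84.4 in control and 59.7, 54.1 and 49.4 normalised read counts in midkine libraries. It was lower (-0.55 on the log2 scale, SE 0.17, limma adjusted p = 0.0109), and without control replicate 1 it was no longer called (-0.47, adjusted p = 0.0545). Slc43a1, which encodes LAT3, had 11 reads in control and 6 in midkine libraries and was not tested.

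Peptide carriers of the Slc15 family couple the entry of dipeptides, tripeptides and histidine to protons. Slc15a3 encodes PHT2, an endolysosomal carrier that releases bacterial muramyl dipeptide to the cytosolic sensor NOD2, and lies on chromosome 19 at 10839727 to 10859362. It was at 106, 128 and 125 normalised read counts in control and 249, 235 and 260.3 in midkine libraries. Replicates lay close together and the groups far apart, with a log2 fold change of 1.05 (SE 0.12, limma adjusted p = 6.4e-08), a 2.07-fold rise. Its exons overlap those of Tmem132a on the other strand, which was not called (log2 fold change 0.36).

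The other endolysosomal carrier was not called. Slc15a4 encodes PHT1, which plasmacytoid dendritic cells need for signalling from the nucleic acid receptors TLR7 and TLR9. It was at 576, 583 and 625 normalised read counts in control and 641, 619 and 692 in midkine libraries, and these groups overlap (log2 fold change 0.13, 95% interval -0.045 to 0.30, limma adjusted p = 0.228). The upper end of that interval is below the fold change of Slc15a3. Plasmacytoid markers had a median of -1.56 on the log2 scale, and the part of those cells in the Slc15a4 value was not tested. With scaling to total reads the estimate of Slc15a4 was -0.13. Slc15a2, the surface carrier PEPT2, was low, at 17.0, 8.40 and 13.5 in control and 18.0, 31.2 and 19.2 normalised read counts in midkine libraries. The groups did not overlap, and its log2 fold change of 0.78 (95% interval 0.10 to 1.45, limma adjusted p = 0.058) was not called by limma, but was by edgeR (0.84, adjusted p = 0.0432) and without control replicate 1 (0.98, 0.0322).

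Transporter genes under the minimum came from 5 families. Beside those given above, they were Slc7a4, with 5 reads in control and 17 in midkine libraries, and Slc7a14, with 6 and 11. In Slc7a4 and Slc36a2 each midkine library had a higher value than any control library. Reads this few do not allow a statement on the size of a difference.

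Genes that respond to amino acid shortage were examined beside the carriers. Of 25 listed ATF4 and amino acid response genes, chosen with earlier results of these data known, 22 were tested. Of these, 19 (86.4%) were higher and 1 (4.55%) lower, against 20.9% and 21.8% of all tested genes. The median log2 fold change of the 22 was 1.01. With scaling to total reads 16 were higher and 2 lower, with a median of 0.76. Under that scaling 10.8% of all tested genes were higher and 40.7% lower. Ddit4, an inhibitor of mTORC1 that stress induces, rose from 57.5 ± 1.98 to 335 ± 8.13 normalised read counts (SD, n = 3; log2 fold change 2.52, limma adjusted p = 7.5e-15). The pseudokinase gene Trib3 rose by 2.47, and the transcription factor genes Ddit3 and Cebpb by 2.10 and 1.97. Exons of Ddit3 overlap Mars and those of Cebpb overlap Tmem189 on the other strand, and both of these neighbours were also higher. Atf4 itself, named after its value was seen, rose by 0.59. The 1 gene called lower, Psat1 (-0.62), acts in serine synthesis, and the 2 not called were Psph of the same pathway and Shmt2. Phgdh, the first enzyme of that pathway, was higher (0.44, adjusted p = 0.0371), a call lost in 9 of the alternatives. Among them were the fits without control replicate 1 (adjusted p = 0.130), control replicate 3 (0.0552), midkine replicate 1 (0.0799) or midkine replicate 2 (0.219).

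Genes of glutathione and cystine use, which share Chac1 with the ATF4 list, were called about as often as genes in general. Of 13 tested 4 were higher and 2 lower (46.2% called, against 42.7% of all tested genes), with a median log2 fold change of 0.29. With scaling to total reads 3 were higher and 4 lower (median 0.04), where 10.8% and 40.7% of all tested genes were. Chac1, which breaks glutathione down, rose by 1.97, Gclm, a subunit of the enzyme that starts glutathione synthesis, by 1.07, and the reductase gene Txnrd1 by 0.77. Gsr, glutathione reductase, rose by 0.67, a call that scaling to total reads ended (0.41, adjusted p = 0.0550).

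**Figure D4:**
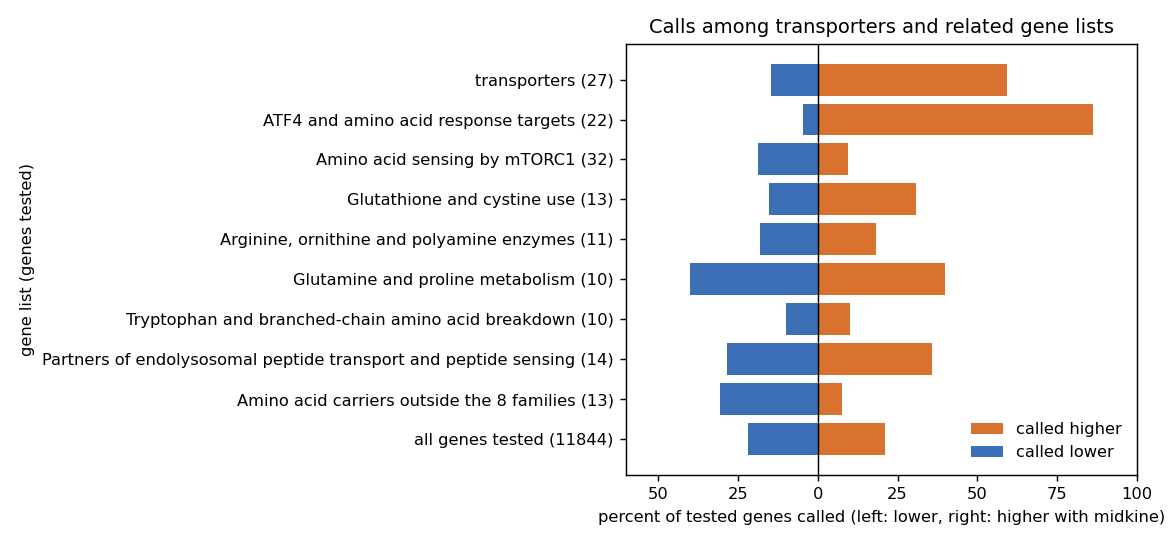
Percent of tested genes called higher (bars to the right) and lower (bars to the left) with midkine, among the transporters, 8 lists of genes around amino acid transport and all tested genes, with the number of genes tested in brackets. The ATF4 list has the longest bar to the right, 19 of 22 genes, while among all tested genes 20.9% were higher and 21.8% lower.

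The machinery by which mTORC1 senses amino acids gave 9 calls. Of 32 tested genes 3 were higher, 6 lower and 23 not called (28.1% called, against 42.7% of all tested genes), with a median log2 fold change of -0.04, and with scaling to total reads 1 was higher and 14 lower (median -0.30), where all genes were at -0.26 and 40.7% of them were lower. Fnip2, a partner of folliculin, rose by 0.88, and Lamtor1, the lysosomal anchor of the Rag GTPases, was lower (-0.41). Fnip1 (0.41) and the leucine sensor gene Sesn2 (0.39), higher with the deposited factors, were not called with scaling to total reads (0.15 and 0.13).

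Glutamine and proline enzymes were split evenly, with 4 of 10 tested genes higher and 4 lower (80.0% called, against 42.7% of all tested genes, median 0.02). With scaling to total reads 3 were higher and 5 lower, where 10.8% and 40.7% of all tested genes were. Asns, Pycr1 and Aldh18a1, among the higher ones, are also on the ATF4 list, so these 2 lists are not independent. Asns, which makes asparagine with nitrogen from glutamine, rose by 1.51 on the log2 scale. Among the lower ones were Glul, glutamine synthetase (-0.62), and Glud1, glutamate dehydrogenase (-0.45). Of 11 tested arginine and polyamine enzymes 2 were higher and 2 lower (36.4% called, against 42.7% of all tested genes, median -0.10). With scaling to total reads 1 was higher and 6 lower, under a scaling in which 40.7% of all tested genes were lower. Sat1, which acetylates polyamines, rose by 0.53, and Oaz1, the antizyme that limits polyamine synthesis, and Sms, spermine synthase, were lower (-0.48 and -0.69). Odc1, the first enzyme of polyamine synthesis, was higher (0.25), a call that 8 alternatives ended. Among them were scaling to total reads (-0.01) and the fits without control replicate 2 (adjusted p = 0.158), control replicate 3 (0.0556), midkine replicate 1 (0.0950) or midkine replicate 3 (0.0888).

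Partners of the endolysosomal peptide carriers gave 5 higher and 4 lower of 14 tested genes (64.3% called, against 42.7% of all tested genes, median 0.11). With scaling to total reads 2 were higher and 7 lower (median -0.15), where 10.8% and 40.7% of all tested genes were. Among the 5 higher, the call of Ripk2 was lost in 9 alternatives, that of Lamp2 in 7 and that of Lamp1 in 2. Irf7, which amplifies interferon production, was lower, with a log2 fold change of -3.11, as was Tlr7, a receptor for single-stranded RNA (-1.66). Exons of Irf7 and Phrf1, which was not called, overlap on opposite strands. Unc93b1, which escorts nucleic acid receptors to endosomes, was lower (-0.44), and Cd68, a lysosomal membrane protein of phagocytes, rose by 0.61. Nod2, the sensor that Slc15a3 supplies, named after its value was seen, rose by 1.10. Irf7, Tlr7 and Unc93b1 were lower in the libraries in which 8 of 9 plasmacytoid markers were lower, and the part of those cells in these values was not tested.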

How the data were processed

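The authors deposited a signal table of normalised read counts, whole reads divided by a size factor per library, for 14912 gene symbols in 6 libraries. All values, 100% of them, were whole multiples of 1 read (worth 0.916 to 1.13 in the 6 columns) within a tolerance of 1e-06. Libraries were made with a forward QuantSeq 3' kit from 500 ng of total RNA, with a mean RNA integrity number of 8 (range 5 to 10), per the labels. Tools in the submitters' processing notes are TopHat2 2.0.10 and Bowtie 1.0.0 (alignment software), HTSeq, DESeq2, SAMtools 0.1.19 and FastQC 0.11.0, and the builds there are mm10 and GRCm38. Neither the gene models nor the strand option used in counting is given in the sources used here. Molecular identifiers are not named there either, so reads are not known to be independent molecules.

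Genes with a mean of at least 10 were tested with limma 3.58.1 under R 4.3.3, on log2(value + 1) over the whole table, with trended eBayes variances and a Benjamini-Hochberg threshold of 0.05. On this scale the fold changes of low genes are understated. Replicates differed by more than counting noise (chi-square per degree of freedom 2.31 to 10.6), so each library counted as 1 replicate. Groups came from the titles. Members and lists were chosen with earlier results of these data known. Values in each library are given for called transporters with separate groups and a log2 fold change of at least 0.5 in size and for tested Slc3 and Slc15 genes, and at most 4 called genes with the smallest p per list. One gene that this rule selects is not reported here. Alternatives were pseudocounts of 0.5 and 5, no minimum or one of 50, TMM, quantile and total-read scaling, no variance trend, a replicate block, whole-read tests with DESeq2 1.42.0 and with edgeR 4.0.16 (quasi-likelihood), and leaving out each library. Positions are from GENCODE vM21 (GRCm38), which held all 35 transporters. Exon overlaps were taken from the same annotation. Figures used Python 3.11.15 and matplotlib 3.10.9.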

Additional observations from a re-analysis of the deposited data

How the results depend on the processing

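Of 480 pairs of a tested transporter and an alternative, 433 kept call and sign, 38 lost the call, 2 gained one (Slc15a2) and 7 changed sign. Transporters called higher, 16 in the report, were 10 with scaling to total reads and 11 to 16 when 1 library was left out; those called lower, 4 in the report, were 3 to 4 in those fits. Over all genes 2481 were higher and 2578 lower. Scaling to total reads gave 1283 and 4817, and leaving out 1 library gave 2139 to 2287 higher and 2136 to 2344 lower. DESeq2, the fit without a variance trend and the minimum of 50 each gave 13 transporters higher and 4 lower, and edgeR 16 and 4. With scaling to total reads the sign turned for Slc15a4 (-0.13), Slc36a1 (-0.0071), Slc38a2 (-0.17), Slc38a9 (-0.060) and Slc7a1 (-0.0071), of which Slc7a1 had been called. Slc36a1 also turned without midkine replicate 2 (-0.037) and Slc7a7 without midkine replicate 3 (0.0015); their other fits without a library reached 0.51 and -0.56. The cause was not tested.

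The replicate numbers are not known to mark a shared mouse or day. Deviations from the group means of same-numbered libraries correlated at -0.0097, 0.029 and -0.058 across genes. With 3 libraries a group, correlations this small cannot show whether same-numbered libraries share a mouse or day. A replicate block gave 15 transporters higher and 4 lower, and 2519 and 2641 over all genes. With 3 libraries a group and few reads, differences in the 8 untested transporters were not measurable.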

Other observations

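Amino acid carriers outside the 8 families were called about as often as genes in general. Of 13 tested genes 1 was higher and 4 were lower (38.5% called, against 42.7% of all tested genes), with a median log2 fold change of 0.04. With scaling to total reads 0 were higher and 4 lower, where 10.8% and 40.7% of all tested genes were. Mitochondrial aspartate and glutamate exchangers were among the lower ones, Slc25a12 with -0.58 and Slc25a13 with -0.41 on the log2 scale. Pqlc2, which exports cationic amino acids from lysosomes, was lower (-1.16). Mfsd12, a lysosomal cysteine importer, rose by 0.53, a call that scaling to total reads ended (0.27, limma adjusted p = 0.0592), and its exons overlap Fzr1 on the other strand.

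Of 10 tested genes of tryptophan and branched-chain amino acid breakdown 1 was higher and 1 lower (median -0.08). Among all tested genes 20.9% were higher and 21.8% lower, so this list was called less often than genes in general. With scaling to total reads 1 was higher and 2 lower, where 10.8% and 40.7% of all tested genes were. Il4i1, a secreted oxidase of aromatic amino acids, rose by 0.95 on the log2 scale, and its exons overlap Atf5 on the other strand, which rose by 0.71, and Nup62 on the same strand, which was not called. Bckdha, a subunit of the branched-chain keto acid dehydrogenase, was lower (-0.38), and its call was lost in 10 of the 18 alternatives, with limma, edgeR or DESeq2 adjusted p from 0.05002 to 0.225. Among them were the fits without control replicate 1 (0.142), control replicate 2 (0.0614), control replicate 3 (0.0852), midkine replicate 1 (0.225) or midkine replicate 2 (0.0795).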
